A study of Mus musculus with 18 samples.

Results

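The Myb locus and the Runx1 locus are described here as they appear in a list of chromatin loops from mouse erythroblasts. The Myb window was chr10:20800000-21050000, which was chosen to hold Myb and the stretch up to Hbs1l. The Runx1 window was chr16:92550000-92900000, which was chosen to hold both Runx1 promoters and the enhancer in its intron. Every loop with at least 1 anchor overlapping a window was taken. This gave 8 loops at Myb and 15 at Runx1, or 23 of the 20926 loops in the list (0.110%). The domains that overlapped each window were taken from a list of 13483 domains. There was 1 at Myb, and there were 4 at Runx1.

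The series holds 18 Micro-C libraries of the LDB1-AID subline of G1E-ER4 cells, 9 untreated and 9 treated with auxin for 4 h. Micro-C cuts chromatin with micrococcal nuclease and ligates DNA ends that lie close together, so that read pairs report which positions meet. G1E-ER4 is an immortal mouse erythroblast line that lacks its own GATA1 and carries GATA1 fused to a hormone receptor domain. Both groups carry LDB1 joined to an auxin-inducible degron, a tag that generally leads to loss of the protein when auxin is given. Both lists were made once for the whole series, and which libraries entered them is not given in the sources used here. They hold coordinates without any score or value per library. The effect of auxin was therefore not measured here, depth is unknown, and there are no replicates or spread between libraries behind any value. All comparisons with the whole list are descriptions without a test. The lists hold no expression values, so the labelled cell type was not checked against marker genes.

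Myb encodes a DNA-binding factor that keeps blood progenitors dividing and falls as red cells mature. Its known enhancers in erythroid cells lie in the stretch between Myb and Hbs1l and are bound by GATA1 and its partners. Runx1 encodes a DNA-binding factor needed for the first blood stem cells to form, and it is read from a distal and a proximal promoter with a known blood enhancer in the intron between them. LDB1 binds no DNA by itself. It joins to LMO2, which connects it to the E-box factor TAL1 and to GATA factors, and LDB1 molecules pair with each other, so that sites far apart can be held together.

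In the RefSeq gene order of GRCm38, Myb stands between the protein-coding genes Ahi1, a gene of the primary cilium, and Hbs1l, a factor that rescues stalled ribosomes. Another 5 entries were listed between Myb and Hbs1l, of which 4 were long non-coding RNAs and 1 was a pseudogene. Runx1 stands between Clic6, of the chloride intracellular channel family, and Setd4, a methyltransferase gene. All 9 entries listed between Runx1 and Setd4 were non-coding, 8 long non-coding RNAs and 1 microRNA, Mir802. The coordinates of the lists belong to mm9, per the submitters' processing notes. No GRCm38 coordinate was carried over to them. Which anchors hold a promoter, an enhancer, an exon or an intron was therefore not determined.

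The promoter sequences of both genes are printed because the windows were placed around their starts. They are the RefSeq promoters of GRCm38.p6, 250 bases before to 50 after the start, on the minus strand, and all 3 promoters of these genes in the table are given. Capitals mark E-boxes, CANNTG, which is its own reverse complement, and the RUNX site TGTGGT or its reverse complement ACCACA.
Myb: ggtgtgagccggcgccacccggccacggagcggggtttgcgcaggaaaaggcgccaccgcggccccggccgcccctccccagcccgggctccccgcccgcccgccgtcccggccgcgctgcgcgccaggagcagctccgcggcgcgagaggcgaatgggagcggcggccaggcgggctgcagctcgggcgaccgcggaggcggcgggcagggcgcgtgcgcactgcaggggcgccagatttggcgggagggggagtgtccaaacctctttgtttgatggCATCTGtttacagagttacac
Runx1 distal: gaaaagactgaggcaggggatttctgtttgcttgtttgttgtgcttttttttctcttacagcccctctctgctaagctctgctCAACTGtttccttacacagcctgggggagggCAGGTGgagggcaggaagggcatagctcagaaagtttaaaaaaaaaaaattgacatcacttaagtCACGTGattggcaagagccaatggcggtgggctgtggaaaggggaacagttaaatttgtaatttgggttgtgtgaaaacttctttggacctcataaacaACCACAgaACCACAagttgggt
Runx1 proximal: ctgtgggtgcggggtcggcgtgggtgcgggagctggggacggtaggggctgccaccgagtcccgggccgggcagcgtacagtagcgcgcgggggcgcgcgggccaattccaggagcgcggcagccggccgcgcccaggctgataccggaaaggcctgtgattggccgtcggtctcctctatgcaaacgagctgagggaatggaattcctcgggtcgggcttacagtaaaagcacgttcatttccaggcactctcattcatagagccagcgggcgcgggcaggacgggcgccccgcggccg

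The distal Runx1 promoter held 3 E-boxes, CAACTG at -167, CAGGTG at -136 and CACGTG at -71, counted from the start with no position 0. It also held 2 RUNX sites on the reverse strand, at 29 and 37 after the start. The Myb promoter held 1 E-box, CATCTG at 30, and the proximal Runx1 promoter held neither motif. Of the 32851 promoters in the table, 72.3% held an E-box and 16.8% a RUNX site. The GATA motif GATAA, searched on both strands, was in none of the 3 windows and in 25.4% of all promoters. A joint E-box and GATA motif, CTG followed after any 8 bases by GATAA, also searched on both strands, was in none of the 3 and in 0.618% of all. The MYB motif AACNG, on both strands, matched 1 time in Myb, 5 times in distal Runx1 and 0 times in proximal Runx1, and 80.3% of all promoters held it. The MYB motif shared letters with an E-box in Myb and at -167 in distal Runx1. The distal Runx1 promoter had 45% G or C, against 75% for Myb and 69% for proximal Runx1. The median over all promoters was 52.7%. Of all promoters, 22.0% had less G or C than distal Runx1, 96.1% less than Myb and 88.9% less than proximal Runx1. These matches describe 300 bases around a start and say nothing of the enhancers.

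At the Myb locus, loops joined a row of closely spaced places inside 1 domain. Anchors are 10000 bp wide and are placed in steps of 2, 5 or 10 kb, here called the grid of a loop. Anchors that overlapped by at least 1 bp were merged into anchor regions over the whole list. The 8 loops used 7 regions, and these belonged to a single network of 8 regions and 10 loops in which every region can be reached from every other through loops. In order of position they are written M1 to M8. M1 was chr10:20700001-20720000 and M2 was chr10:20772501-20782500, both below the window. M3 was chr10:20870001-20882500, M4 was chr10:20902501-20922500 and M5 was chr10:20940001-20950000. M6 was chr10:20967501-20982500 and M7 was chr10:21010001-21020000. M8, chr10:21050001-21062500, began at the first base past the upper edge of the window.

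From M3 to M8 the midpoints of neighbouring regions were 30 to 41.3 kb apart (36.3, 32.5, 30, 40 and 41.3 kb in order). No loop joined neighbours in this row. The loops passed over at least 1 region: of the 15 pairs among these 6 regions, 6 were joined and 9 had no loop in the list. All Myb loops were of the 5 kb and 10 kb grids, on which loops as short as these distances were hardly listed anywhere. Of the loops under 45 kb in the whole list, 1126 were of the 2 kb grid, 0 of the 5 kb grid and 51 of the 10 kb grid. Grids were read from the anchor starts alone. A loop in 2 kb steps whose starts both fall on multiples of 10 kb is therefore counted on the 10 kb grid. The 2 kb grid, which held most loops under 45 kb, had 0 loops at Myb. Whether the lack of loops between neighbours comes from the grids was not tested. A missing loop is a contact not listed, which is not the same as a contact that does not occur.

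M3, M4 and M6 had 3 loops each. M3 was joined to M6 over 95 kb, to M8 over 180 kb and to M1 over 160 kb. M4 was joined to M6 over 55 kb, the shortest loop of the locus, to M7 over 100 kb and to M1 over 195 kb, the longest of the 8. M6 thus received loops from M3 and M4 on its lower side, and it was joined to M8 over 80 kb on its upper side. M5 had a single loop, to M8 over 110 kb, and M7 had a single loop, to M4. Over the whole list 26.7% of 20368 regions had 3 or more loops, and 52.1% had 1.

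The regions with the most loops at the locus were the outer ones, M1 and M8, each with 4. M1 had all 4 partners at higher coordinates and M8 had all 4 at lower coordinates, so that both faced into the locus. They were joined to each other by a loop of 350 kb that passed over the whole window and therefore has no anchor in it. The remaining loop of the network ran from M1 to M2 over 65 kb. Regions with 4 or more loops made up 14.6% of the list. The count of 4 depended on the merging of anchors: the most loops at a region of the locus were 9 with anchors up to 10 kb apart merged, and 2 with identical anchors merged only.

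Some of these contacts closed into triangles, in which 3 regions are joined in every pair. One was made of M3, M6 and M8, and another of M1, M3 and M8. The second triangle depended on the merging of anchors. The M1 anchors of the loops to M8 and M3, chr10:20700001-20710000 and chr10:20710001-20720000, did not overlap each other. They became 1 region through the anchors of the loops to M2 and M4. The pair M3 and M8 was common to both triangles, with M1 and M6 as its shared partners. Among the 19836 joined pairs of regions in the list, 9.04% had at least 2 shared partners. Within the Myb network 6 of 21 pairs of partners of the same region were themselves joined (28.6%), against 22.3% over the whole list. The Myb share includes the triangle that depended on the merging of anchors. Taking out M1, M4 or M8 would each cut off 1 region, and taking out any of the other 5 would leave the network in 1 piece. The extent of the network depended on how near anchors had to be: it had 34 regions with anchors up to 10 kb apart merged, and 5 regions with identical anchors merged only.

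**Figure D1:**
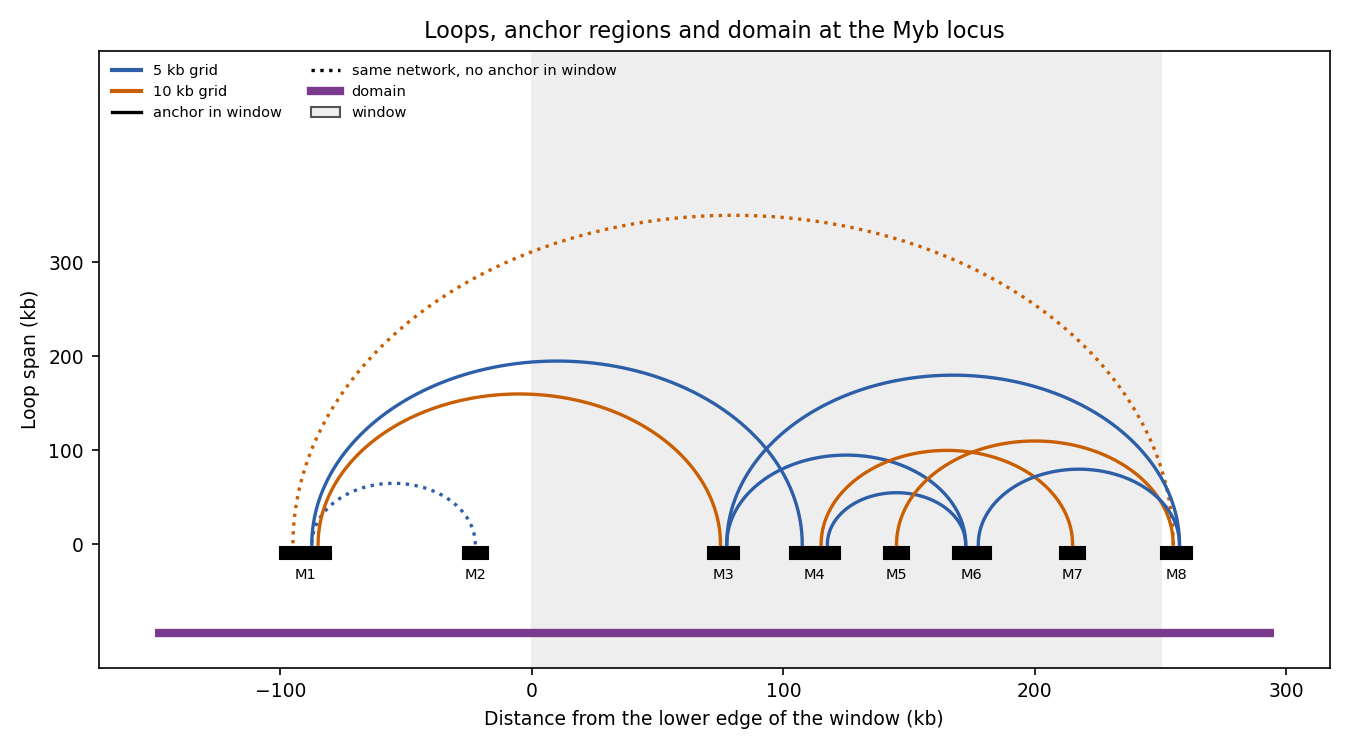
Loops of the Myb network drawn as arcs over the distance in kb from the lower edge of the window, with the height of an arc equal to its span in kb. Colours give the coordinate grid, dotted arcs have no anchor in the window (grey), black boxes are anchor regions M1 to M8 and the purple bar is the domain; the 8 solid arcs span 55 to 195 kb and all arcs lie within the domain.

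The single domain at the Myb locus, chr10:20650001-21095000, was 445 kb long and held the whole window. It held no other domain and lay inside no other, which was the case for 2137 of 13483 domains (15.8%). All 10 loops of the network lay inside it, and the domain held no further loop. At 2.25 loops per 100 kb it was denser in loops than 93.6% of domains, with more loops than 90.9% of them. Its size exceeded that of 53.9% of domains. The median over all domains was 0 loops inside and 0 loops per 100 kb, so a domain with any loop ranks above the median. The window contained 0 boundaries. No anchor midpoint of the 8 loops lay within 20 kb of a boundary, whereas 48.2% of all loops had such an anchor. Within 40 kb the numbers were 3 of the 8 loops and 70.9% of all loops. M1 was centred 60 kb above the lower end of the domain and M8 38.8 kb below its upper end. The loop between M1 and M8 thus stopped short of both ends.

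At the Runx1 locus, a single place inside the window carried most loops. The 15 loops used 13 regions, and 14 of the loops belonged to a network of 14 regions and 20 loops that reached over 1040 kb. The regions are written R1 to R14 in order of position. In the window lay R2 (chr16:92562501-92572500), R3 (chr16:92690001-92710000), R4 (chr16:92818001-92832500), R5 (chr16:92862501-92872500) and R6 (chr16:92880001-92890000). Above the window, R10 (chr16:93140001-93157500), R12 (chr16:93287501-93297500) and R13 (chr16:93447501-93462500) each had at least 2 loops to it. The network also held R1 below the window and R7, R8, R9, R11 and R14 above it. The remaining loop joined R15 (chr16:92710001-92720000) with R16 (chr16:92800001-92810000) over 90 kb and formed a network of its own.

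R3 had 10 loops to 10 different regions, and 10 of the 15 Runx1 loops therefore had an anchor there. Only 66 of the 20368 regions of the list (0.324%) had 10 or more loops, 7 of them on chromosome 16. The count of 10 depended on the merging of anchors. The most loops at a region here were 11 with anchors up to 10 kb apart merged, and 7 with identical anchors merged only. Of the partners of R3, 1 lay at lower coordinates, R2 at 130 kb, and 9 lay at higher coordinates. The nearest of the 9 was R4 at 124 kb. R5 followed at 170 kb, R6 at 180 kb and R7 at 230 kb. R9 lay at 315 kb, R10 at 450 kb, R11 at 520 kb, R12 at 595 kb and R13 at 755 kb. The loops of R3 thus fanned out over a wide range of distances on its upper side, with 6 of the 10 ending above the window. Runx1 is read on the minus strand in GRCm38, and the upper side is upstream of a gene read that way. Where R3 and its partners lie relative to Runx1 was not determined, so these loops are not shown to run upstream of it.

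Such one-sidedness was not rare among places with many loops. Of the 66 regions with 10 or more loops, 14 had at most 1 partner on one side. The median span of the R3 loops was 273 kb, and 22 of the 66 had a longer one; the median over the 66 was 206 kb. Of the 45 pairs of partners of R3, 6 were joined (13.3%), and 28 of the 66 had a higher share.

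Other places shared the far partners of R3. R4 was joined to R10 over 320 kb and to R12 over 465 kb, and R10 to R12 over 140 kb. With the loops of R3 to each of them, R3, R4, R10 and R12 formed a set of 4 regions joined in all 6 pairs. The list held 218 such sets, with 626 regions (3.07% of all regions) in at least 1 of them. The pair R3 and R12 had 4 shared partners, R2, R4, R9 and R10. Among joined pairs of the list 1.99% had 3 or more.

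R2, the lowest region in the window, reached furthest. It was joined to R12 over 725 kb and to R13 over 885 kb, the longest of the 15 loops, besides its loop of 130 kb to R3. R2, R3 and R12 formed a triangle, and so did R2, R3 and R13. R12 had 5 loops, all to lower coordinates, and R13 had 5 loops, of which 4 ran to lower coordinates. Regions with 5 or more loops made up 7.76% of the list. R1, R13 and R14 formed a triangle around the locus, with loops of 930, 1025 and 90 kb, and none of these had an anchor in the window. The other loops of the network without an anchor in the window joined R8 to R13 over 490 kb and R9 to R12 over 280 kb, besides the one from R10 to R12.

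Within the window itself 5 of 21 pairs of regions were joined, and 4 of the 5 included R3. The exception was the loop from R15 to R16. R15 began at the base after the end of R3, and R16 ended 8 kb before the start of R4, so this loop lay inside the one from R3 to R4, and their anchors did not overlap. The loop from R3 to R4 was the only one of the 15 on the 2 kb grid. Taking out R3 would leave 5 pieces of the network, 1 of 9 regions and 4 single regions. Taking out R13 would leave 3 pieces, the largest of 10 regions. Taking out any of the other 12 would leave 1 piece.

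**Figure D2:**
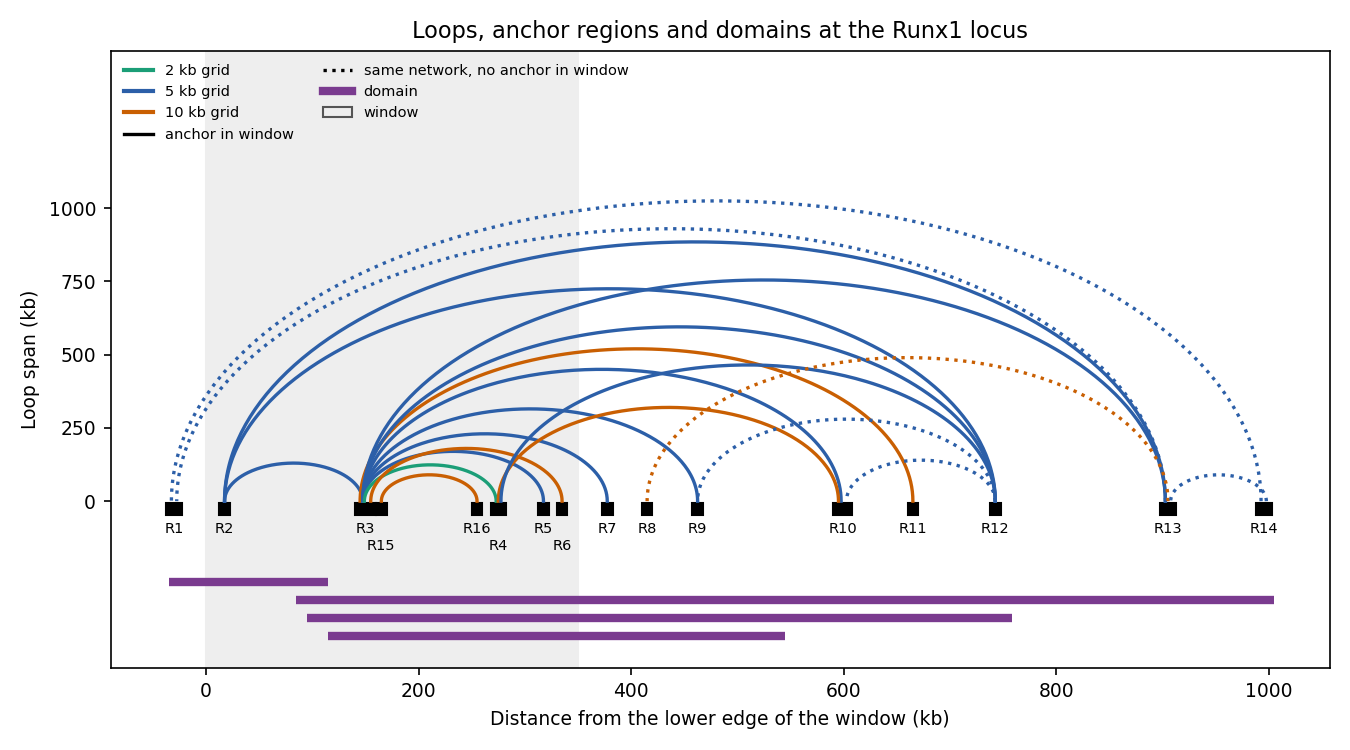
Loops of the Runx1 networks drawn as arcs over the distance in kb from the lower edge of the window, with the height of an arc equal to its span in kb. Colours give the coordinate grid, dotted arcs have no anchor in the window (grey), black boxes are anchor regions R1 to R16 and purple bars are the 4 domains; 10 arcs start from R3, of which 9 run to the right.

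Domains divided the Runx1 window. No domain held all of it. A domain of 150 kb, chr16:92515001-92665000, covered its lower part, held R2, and had no loop with both anchors inside. The other 3 domains were nested and extended upward: chr16:92665001-93095000 (430 kb) lay inside chr16:92645001-93308333 (663 kb), which lay inside chr16:92635001-93555000 (920 kb). They held 6, 11 and 12 of the 15 loops. The largest had 16 loops inside, more than 96.2% of domains, at 1.74 loops per 100 kb, and 88.4% of domains were less dense. It was also larger than 84.1% of domains, and the median domain had 0 loops inside. R3 was centred 35 kb above the boundary between the 150 kb and the 430 kb domain.

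The 3 loops of R2 had their ends in no common domain, since R2 lay in the lower domain and R3, R12 and R13 in the upper ones. Over the whole list 13.5% of loops had this property. The loops of R3 ended inside the smallest of the nested domains for R4, R5, R6, R7 and R9, inside the next for R10, R11 and R12, and inside the largest for R13. R12 was centred 12.5 kb from a boundary and was the partner in all 3 loops with an anchor within 20 kb of one. Over the whole list, 48.2% of loops had an anchor within 20 kb of a boundary. The count depended on this distance, with 0 of the 15 loops within 10 kb and 13 within 40 kb, against 31.6% and 70.9% of all loops. The 13 included all 10 loops of R3, whose anchors there were centred 30 to 40 kb from the same boundary. The window held 3 boundaries.

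The loci differed in the reach of their loops. The median span was 105 kb at Myb, with a range of 55 to 195 kb, and 320 kb at Runx1, with a range of 90 to 885 kb. The median of the list was 175 kb. Spans differ between the grids of 2, 5 and 10 kb, with medians of 78, 195 and 280 kb in that order. Of the Myb loops, 5 were of the 5 kb grid and 3 of the 10 kb grid. Of these, 0 of 8 spanned more than the median of their grid. The Runx1 loops numbered 1, 10 and 4 by grid from finest to coarsest, and 11 of 15 spanned more than the median of theirs. None of the 8 Myb loops reached 300 kb, and 9 of the 15 Runx1 loops did. The longest of the 8, at 195 kb, was longer than 49.5% of loops on its grid. The longest of the 15 was longer than 95.2% of loops on its grid. These values depend on where the windows end. The 350 kb loop from M1 to M8, longer than 60.0% of its grid, was left out because M8 begins at the first base past the window. Loops of 930 and 1025 kb, from R1 to R13 and to R14, likewise had no anchor in the Runx1 window.

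**Figure D3:**
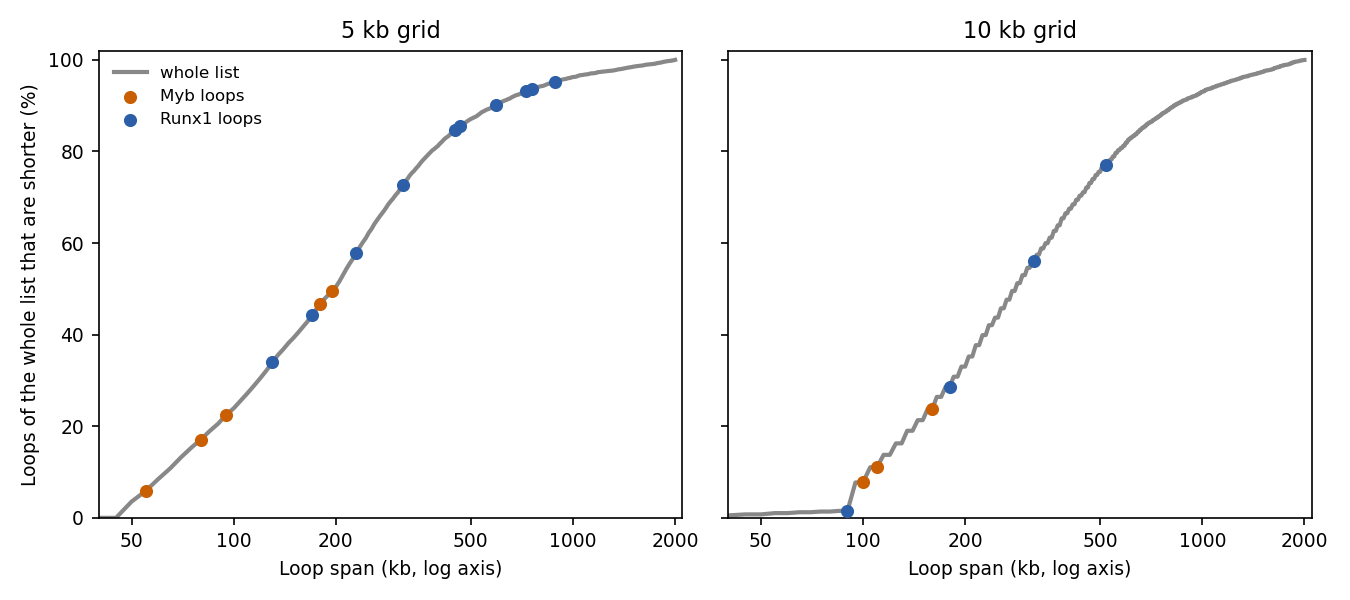
Share of loops in the whole list that are shorter than a given span (grey line, %), in panels for the 5 kb and 10 kb grids, with each Myb and Runx1 loop placed at its span (kb, log axis). Each of the 8 Myb loops with an anchor in the window lies below 50%, and 11 of the 15 Runx1 loops lie above it. The Runx1 loop on the 2 kb grid, which is among the 11, is not drawn. Loops without an anchor in a window, such as the 350 kb loop from M1 to M8, are not drawn either.

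Direction differed as well. At Myb 3 loops had both anchors in the window, 2 reached below it and 3 reached above it. All 3 that reached above ended in M8, which begins at the first base past the window. Their count as reaching above thus depends on where the window ends. At Runx1 5 had both anchors in the window, and all 10 others reached above it. The share of the window under anchors of its own loops was similar, 67.5 kb or 27.0% at Myb and 84.5 kb or 24.1% at Runx1. The share of partner pairs that were joined was 28.6% in the Myb network and 31.2% in the Runx1 network (24 of 77). The Myb share includes the triangle of M1, M3 and M8, which depended on the merging of anchors.

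**Figure D4:**
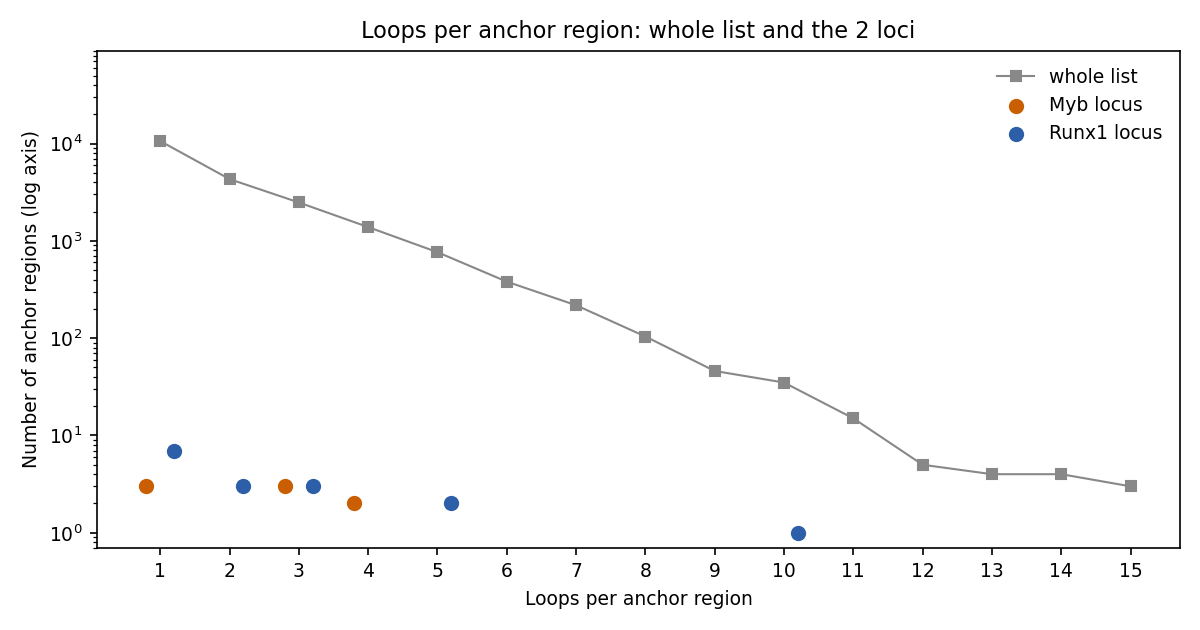
Number of anchor regions (log axis) with each number of loops, for the whole list (grey squares) and for the regions M1 to M8 and R1 to R16 (points, moved slightly sideways so that they do not overlap). The Myb regions have 1 to 4 loops and the Runx1 regions 1 to 5, with R3 alone at 10.

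Neither window was extreme in its number of loops. The chromosomes were divided into tiles of the length of each window, aligned to it. For the Myb window of 250 kb, 81.5% of 10236 tiles had fewer than 8 loops. The median tile had 1 loop, the upper quartile was 6 and the highest was 34. For the Runx1 window of 350 kb, 92.8% of 7319 tiles had fewer than 15 loops, with a median of 2, an upper quartile of 8 and a highest value of 36. Many tiles were empty, 42.1% and 36.8%. Among tiles with at least 1 loop, 68.0% had fewer loops than the Myb window and 88.6% fewer than the Runx1 window. On their own chromosomes 84.8% of tiles on chromosome 10 and 95.6% of tiles on chromosome 16 had fewer.

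**Figure D5:**
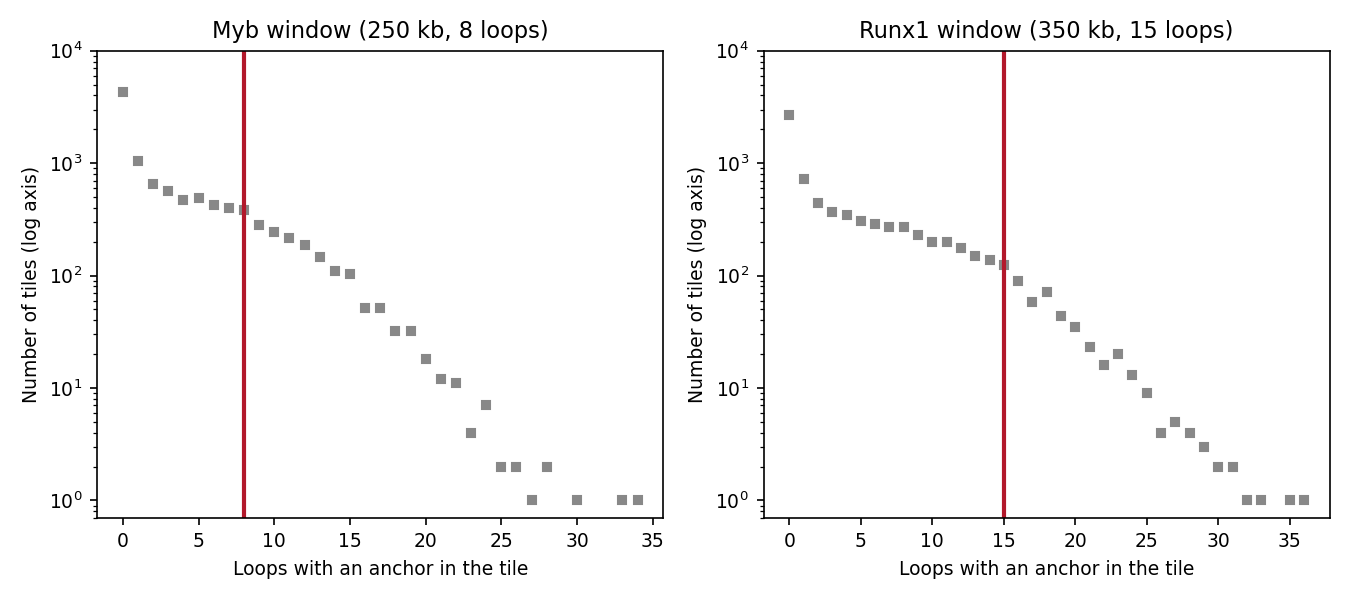
Number of tiles of the whole list (log axis) with each number of loops, for tiles of 250 kb and of 350 kb; the red lines mark the Myb window at 8 loops and the Runx1 window at 15. Both lines lie in the upper part of the distribution and short of its end at 34 and 36 loops.

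The order of the loci by size of network depended on the merging of anchors. With overlapping anchors merged, the Myb network, with 8 regions, was larger than 80.8% of the 3826 networks of the list, and the main Runx1 network, with 14 regions, was larger than 91.3%. The median network had 2 regions, which is a single contact. There were 736 networks with at least 8 regions and 332 with at least 14. With anchors up to 10 kb apart merged the order turned, to 34 regions in the Myb network and 13 in the Runx1 network. With identical anchors merged only, the networks had 5 and 11 regions.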

How the data were processed

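Per the submitters' processing notes the genome build was mm9; the largest coordinate on chromosome 7 was 152462500. The aligner, the callers of loops and domains, their resolutions and filters are not given in the sources used here. The authors deposited coordinates in bp with no score, and 0 columns held values of single samples. By its deposited name, the list of domains had been filtered and merged by the authors. A test of auxin, gene features at anchors and read depth were not analysed here.

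Starts were read as counted from 0 and are printed from 1. Span is the distance between anchor midpoints. A loop was called 10 kb grid where its anchors both begin at multiples of 10 kb, including any loop in 2 kb steps that does so. It was called 5 kb grid where an anchor begins 2.5 or 7.5 kb past such a multiple, and 2 kb grid otherwise. Loops between the same regions count as 1 joined pair. The windows, the motifs and the regions to name (those in a window, those joined to it by at least 2 loops, and the ends of the longest loop) were chosen with earlier results of these data known; M2, R1, R7, R8, R9, R11 and R14 were named after their values were seen. Python 3.11.15, pandas 2.3.3, networkx 3.6.1 and matplotlib 3.10.9 were used, and the merging and counting were tested on simulated lists.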

Additional observations from a re-analysis of the deposited data

How the results depend on the processing

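Of 44 alternatives, 29 left a value within 1.5 times the main one (for the shares of tiles, within the 95% Wilson interval) and 15 moved it. Requiring both anchors in the window left 3 loops at Myb and 5 at Runx1. With each window edge moved out by 50 kb there were 12 loops at Myb and 17 at Runx1, against 8 and 15. With each edge moved in by 50 kb there were 8 and 13. These 4 values are counted among the 29, with the 12 at Myb lying at the limit of 1.5 times. At Myb 5 loops remained without the 10 kb grid, the same number as on the 5 kb grid alone. Merging identical anchors only gave 13 regions at Myb in place of 7, with at most 2 loops each and a largest network of 5 regions; merging anchors within 10 kb gave a region with 9 loops and a network of 34 regions in place of 8. At Runx1 the same settings gave 7 and 11 loops at the region with the most, against 10, and networks of 11 and 13 regions, against 14, so that merging within 10 kb turned the order of the 2 networks by size. Of the 4 Runx1 domains 0 held the whole window, 2 held no other domain and 2 lay inside no other. Loops with an anchor near a boundary numbered 3 at Myb within 40 kb, against 0 at 20 kb, and at Runx1 0 within 10 kb and 13 within 40 kb, against 3 at 20 kb. Counting contacts once left 8 and 15 loops.

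No paired analysis was possible because neither list gives values of single samples; the alternatives for auxin, with and without single replicates, were not run. Unknown depth limits what a missing loop means.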
